A study of Mus musculus with 10 samples.

Results

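Ifi27l1, Ifi27l2a, Ifi35, Nmi and Ifi44 are 5 interferon-inducible genes that were chosen by name. All 5 had a row among the 23337 genes in the files. They were followed in 10 stranded total RNA sequencing libraries made from immortalised fibroblasts of mouse embryos (MEFs), cells that lay down connective tissue. Per the labels, the cells were Slfn2 WT or Slfn2 KO, and were either untreated or given mouse interferon-β (IFN-β) at 5000 IU/ml for 6 h. Each Slfn2 WT group held 3 libraries and each Slfn2 KO group 2. Replicates are described as plated side by side, and the labels name no separate lines, clones or embryos. P-values therefore measure the spread between these libraries, which may be technical, and genotype and other differences between the WT and KO cells cannot be told apart.

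IFN-β binds its receptor on the cell surface and activates the kinases Jak1 and Tyk2. These phosphorylate STAT proteins, which join Irf9 and switch on genes that carry interferon-stimulated response elements. Ifi35 and Nmi encode related proteins that share a domain and bind each other, and both have been described as regulators of interferon and NF-κB signalling in the cell and as danger signals outside it. Ifi44 encodes a cytoplasmic protein that restrains cell growth and is known to bind Fkbp5. Ifi27l1 (Ifi27 in current nomenclature) and Ifi27l2a belong to the ISG12 family of small hydrophobic proteins of mitochondria and the nuclear envelope, which have been linked to apoptosis.

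Each library held 13565815 to 16329729 reads counted in genes, as recovered from the deposited values. Slfn2, the targeted gene, measured 15.5 to 18.7 normalised reads in untreated Slfn2 WT cells and 449 to 573 with IFN-β. In the Slfn2 KO libraries its values were 46.1 and 34.9 before treatment and 75.0 and 171 after it. KO minus WT, the log2 difference was 1.18 ± 0.36 untreated (limma adjusted p = 0.091, and 0.039 with the replicate number as a block in the fit) and −2.17 ± 0.36 with IFN-β (adjusted p = 0.0082). Because the untreated values run against the label, and nothing in the files says which part of the gene was deleted, the cells are called WT-labelled and KO-labelled. The 8 fibroblast markers (Col1a1, Vim and others) summed to 212000 to 478000 normalised reads per library. Markers of macrophages and leukocytes summed to 53.0 to 97.0, of endothelium to 0.968 to 20.2 and of epithelium to 1 to 5.16. Of the macrophage and leukocyte markers, Csf1r (15.8 to 58.4 normalised reads) and Cd68 (26.8 to 46.3) had reads in every library. Ptprc, Itgam and Lyz2 had at most 2 reads in a library. Adgre1 (Emr1 in the files) had 0 reads in every library, which allows up to 3 reads per library.

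Ifi44, Ifi35 and Nmi rose with IFN-β in both labelled genotypes, Ifi44 by 7.03 and 6.82 and the other 2 by 3.13 to 3.48 on the log2 scale. Ifi27l1 and Ifi27l2a were higher in every IFN-β library than in any untreated library of the same labelled genotype, but neither passed the test in either genotype. Treated libraries stood above untreated ones without overlap for all 5 genes in both, as they did for 7.48% of all tested genes in WT-labelled and 10.7% in KO-labelled cells. A gene is said to rise where limma gave a Benjamini-Hochberg adjusted p under 0.05 over the 12313 genes tested. Thus 3 of the 5 genes rose in WT-labelled cells, where 2.21% of all tested genes did, and 3 of the 5 in KO-labelled cells, where 1.83% did. The spread in this test was shared over the libraries of all groups. Fitted on the KO-labelled libraries alone, with 2 per group, 0 of the 5 passed, against 3 on the WT-labelled libraries alone. All 5 passed the filter on low counts, and all 5 were tested. These are cultures measured in bulk, so fewer responding cells and less RNA per cell cannot be told apart.

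**Figure D1:**
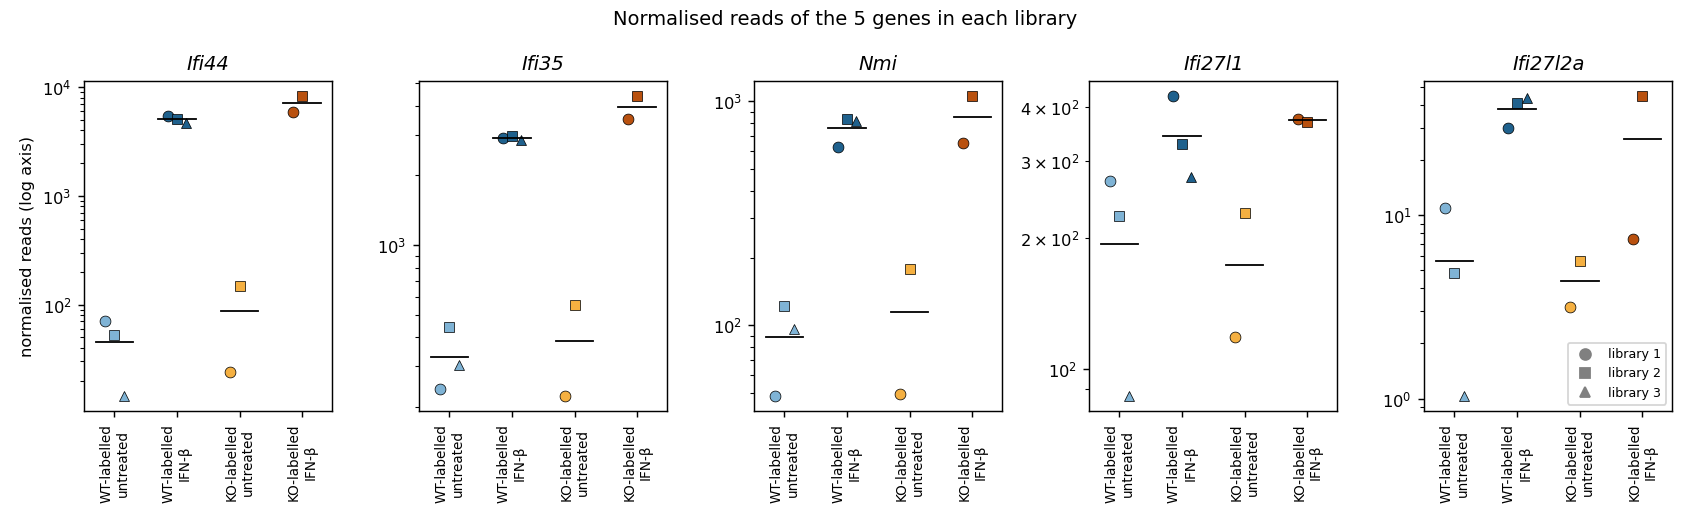
Normalised reads of the 5 genes (log axis, a separate range in each panel) in each library; marker shape gives the replicate number and the bar the group mean (n = 3 in WT-labelled, n = 2 in KO-labelled groups). Ifi44 rises from 14.5 to 149.8 normalised reads untreated to 4633 to 8272 with IFN-β, while Ifi27l1 stays within 86.7 to 423.

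Ifi44 (chromosome 3, 151730922 to 151749960, minus strand, GRCm38) measured 70.3, 52.3 and 14.5 normalised reads in the untreated WT-labelled libraries 1, 2 and 3. With IFN-β it measured 5452, 5140 and 4633. In KO-labelled libraries 1 and 2 it measured 24.1 and 149.8 untreated, and 5860 and 8272 with IFN-β. Relative to their means the untreated values spread more widely than the treated ones, and no untreated library came near a treated one. The log2 fold change was 7.03 ± 0.69 (SE; adjusted p = 0.00037) in WT-labelled cells, a rise from 45.7 ± 28.5 to 5075 ± 413 (SD, n = 3 each). In KO-labelled cells it was 6.82 ± 0.84 (adjusted p = 0.0021), a rise from 87.0 ± 88.9 to 7066 ± 1705 (SD, n = 2 each). Ifi44 ranked 30th among the 12313 tested genes by rise in WT-labelled cells and 45th in KO-labelled cells. The size of the fold rests on the low untreated libraries: it was 6.36 without WT-labelled untreated library 3. In KO-labelled cells it was 5.53 without untreated library 1 and 8.12 without untreated library 2.

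Ifi35 (chromosome 11, 101448407 to 101458698, plus strand) measured 238, 442.5 and 304.5 normalised reads untreated and 2899, 2946 and 2835 with IFN-β in WT-labelled libraries 1, 2 and 3. The treated values were close together at 2893 ± 56.0 (SD, n = 3), whereas the untreated ones spread over 328 ± 104. In KO-labelled libraries it measured 223 and 550.2 untreated, and 3516 and 4403 with IFN-β. Its log2 fold change was 3.18 ± 0.33 (adjusted p = 0.0005) in WT-labelled and 3.48 ± 0.40 (adjusted p = 0.0013) in KO-labelled cells. In KO-labelled cells the value was 2.84 without untreated library 1 and 4.13 without untreated library 2. In the annotation, 290 of its 1727 exonic bases are also covered by Gm11626, an antisense gene on the other strand, and the strand setting of the counting is not given in the sources used here. Reads of both genes cannot be told apart there without it.

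Nmi (chromosome 2, 51948487 to 51973494, minus strand), named for binding to N-Myc and STAT proteins, measured 48.3, 122 and 96.0 normalised reads untreated and 628, 831 and 819 with IFN-β in WT-labelled cells. In KO-labelled cells it measured 49.3 and 179 untreated, and 652 and 1057 with IFN-β. Library 1 was the lowest of its group in all 4 groups. The log2 fold change was 3.17 ± 0.49 (adjusted p = 0.0072) in WT-labelled and 3.13 ± 0.60 (adjusted p = 0.031) in KO-labelled cells. The second of these calls is the less firm. It was lost on leaving out any 1 library other than WT-labelled untreated library 1 or KO-labelled untreated library 2 (adjusted p up to 0.284), and its value was 2.21 without KO-labelled untreated library 1 and 4.05 without library 2. In edgeR, which called 2.1% of genes in WT-labelled and 1.66% in KO-labelled cells, the adjusted p was 0.052, and limma with the replicate number as a block gave 0.00043.

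Ifi27l1 (Ifi27 in the annotation, chromosome 12, 103434211 to 103440239, plus strand) measured 270.1, 225 and 86.7 normalised reads untreated and 423, 329 and 275 with IFN-β in WT-labelled libraries 1, 2 and 3. In KO-labelled libraries it measured 118 and 228 untreated, and 375 and 369 with IFN-β. The highest untreated and the lowest treated WT-labelled libraries were almost level, although they do not overlap. The log2 fold change was 0.95 ± 0.42 in WT-labelled cells (95% interval −0.0067 to 1.91, adjusted p = 0.83) and 1.17 ± 0.52 in KO-labelled cells (0.0013 to 2.34, adjusted p = 1). With the replicate number as a block in limma the intervals were narrower and lay above 0. They were 0.285 to 1.61 in WT-labelled cells (adjusted p = 0.137) and 0.359 to 1.99 in KO-labelled cells (adjusted p = 0.184), and neither passed. With 1 library left out the values ran from 0.45 (without WT-labelled untreated library 3) to 1.27, and from 0.70 to 1.64 (without KO-labelled untreated library 1 and 2). Within libraries of the same number, IFN-β over untreated ran from 1.46-fold to 3.18-fold. That all 5 pairs were above 1 follows from the groups not overlapping and is no separate support.

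Ifi27l2a (chromosome 12, 103442167 to 103443680, minus strand) had the fewest reads of the 5, not corrected for length. Untreated WT-labelled libraries 1, 2 and 3 held 10, 5 and 1 reads of it, and the IFN-β libraries 29, 41 and 45. The 2 untreated KO-labelled libraries held 3 and 6, and the treated ones 7 and 49. KO-labelled IFN-β library 1 thus lay near the untreated libraries, and library 2 near the treated WT-labelled ones. The log2 fold change was 2.89 ± 0.77 in WT-labelled cells (95% interval 1.14 to 4.63, adjusted p = 0.15) and 1.90 ± 0.95 in KO-labelled cells (−0.24 to 4.03, adjusted p = 1). The WT-labelled value ran from 2.21 to 3.49 with 1 library left out, the lowest without untreated library 3 and the highest without untreated library 1. The KO-labelled value was 3.12 without IFN-β library 1 and 0.68 without IFN-β library 2, and 2.53 in edgeR and 2.56 in DESeq2. Among the other tools, DESeq2, which called 3.33% of all genes, called the WT-labelled rise (adjusted p = 0.046, log2 fold change 2.77), and edgeR did not (adjusted p = 0.23). The replicate block gave an adjusted p of 0.054 in limma.

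Ifi27l1 and Ifi27l2a are neighbours on opposite strands, with 1927 bases between them in GENCODE M21. The RefSeq span of Ifi27l2a, 103433873 to 103443680, covers that of Ifi27l1. In GENCODE their exons share 0 bases, and whether the exons used for counting overlapped is not given in the sources used here. Their 50-base transcript windows were nearly all their own: 0 of 1651 windows of Ifi27l1 and 2 of 414 of Ifi27l2a occurred in transcripts of another gene, Ifi27l2b. Ifi27l2b, the remaining member of the cluster, had at most 3 reads in a library and was not tested. None of the windows of Ifi35, Nmi or Ifi44 occurred in another gene's transcripts.

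**Figure D2:**
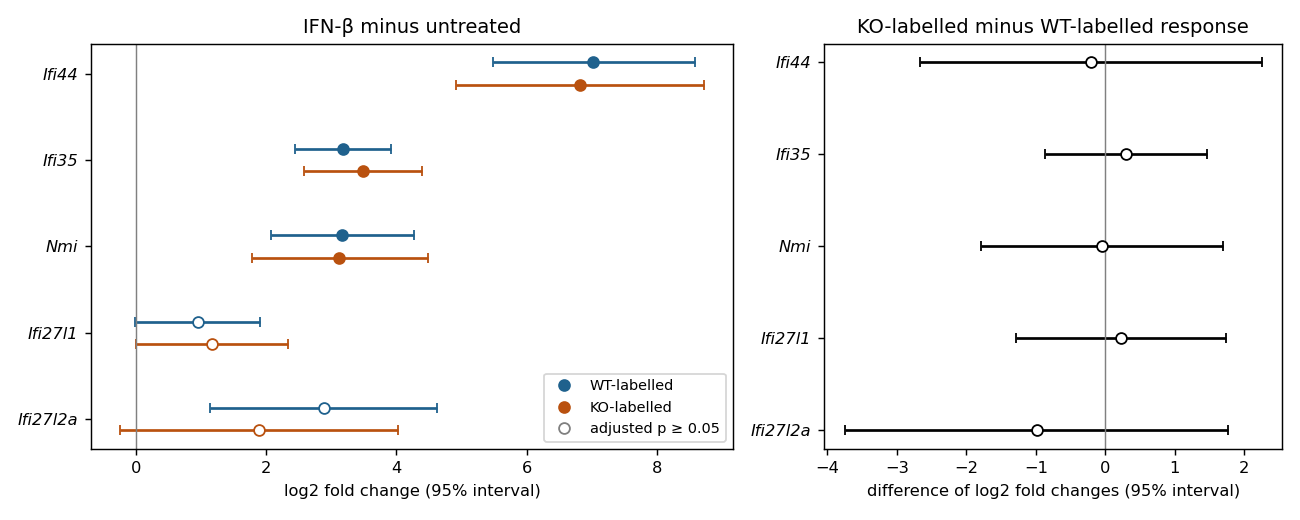
Left, log2 fold change of IFN-β over untreated with its 95% interval in WT-labelled (blue) and KO-labelled (orange) cells; open circles did not pass the test. Right, the difference between the 2 responses with its 95% interval; all 5 intervals include 0.

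The study's title poses Slfn2 as a regulator of the answer to interferon, which the comparison of both responses addresses. For these genes the difference between the responses did not pass in limma. KO-labelled minus WT-labelled, it was 0.30 for Ifi35 (95% interval −0.86 to 1.47), −0.04 for Nmi (−1.79 to 1.70) and −0.20 for Ifi44 (−2.66 to 2.25). For Ifi27l1 it was 0.22 (−1.29 to 1.74), and for Ifi27l2a −0.99 (−3.75 to 1.77). Each adjusted p was 1. With the replicate block the interval was −0.94 to 0.85 for Nmi, −0.47 to 1.07 for Ifi35 and −2.23 to 1.82 for Ifi44. It was −0.83 to 1.27 for Ifi27l1 and −3.48 to 1.5 for Ifi27l2a. Across all genes the interaction called 0% in limma, with 36 genes (0.292%) at an unadjusted p under 0.05. There were 0 calls and 151 such genes (1.23%) with the block, and 0 calls and 39 such genes (0.317%) in edgeR. DESeq2 made 1 call (0.00812%). Were no gene to differ, a share of 0.05 would be expected, so these adjusted p-values say little about the responses. For Ifi44 and Ifi27l2a the intervals without the block reach past 1.7 on the log2 scale in both directions, and none of these values shows that the responses were alike.

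Between the labelled genotypes, none of the 5 genes passed the limma test in either treatment. The intervals, at the level used above, were narrowest for Ifi35, at −0.681 to 0.964 untreated and −0.379 to 1.27 with IFN-β. They were widest for Ifi27l2a, at −1.94 to 1.96 untreated and −2.93 to 0.971 with IFN-β. These values do not show that the labelled genotypes were alike. Untreated, where 6.23% of all tested genes passed, KO-labelled minus WT-labelled log2 differences ran from −0.08 ± 0.47 for Ifi27l1 to 0.66 ± 0.77 for Ifi44 (adjusted p from 0.70 to 0.998). With IFN-β, where 6.55% passed, they ran from −0.98 ± 0.86 for Ifi27l2a to 0.46 ± 0.77 for Ifi44 (adjusted p from 0.56 to 0.93). Both treated KO-labelled libraries were nevertheless above all 3 treated WT-labelled ones for Ifi35 (log2 difference 0.44 ± 0.36) and Ifi44. Groups that do not overlap, with KO-labelled higher, were found for 20% of all tested genes. The summed fibroblast markers also did not overlap there, at 213000 to 305000 normalised reads in WT-labelled and 349000 to 476000 in KO-labelled libraries. Genes with the most reads weigh most in this sum. Singly, the log2 difference was 0.69 for Col1a1, 0.87 for Col1a2 and 0.82 for Fn1. It was 0.06 for Col3a1, −0.04 for Vim, −0.51 for Pdgfrb, 0.57 for Thy1 and 0.37 for S100a4. In limma 0 of 8 passed, and 2, Col1a2 and Fn1, passed with the replicate block (adjusted p = 0.034 and 0.018), where 26% of all tested genes did. The part of the markers in the values of the 5 genes was not tested.

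**Figure D3:**
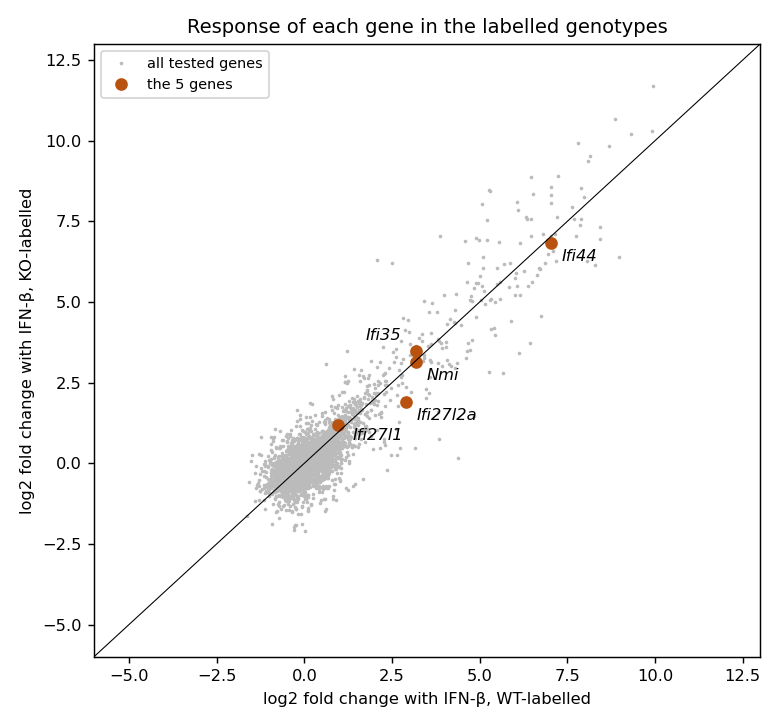
Log2 fold change with IFN-β in KO-labelled against WT-labelled cells for all 12313 tested genes (grey) and the 5 genes (orange), with the line of equal response. Ifi44, at 7.03 and 6.82, lies far from the bulk of genes near 0, Ifi35 and Nmi lie near 3 on both axes, and Ifi27l1 lies at the edge of the bulk.

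IFN-β changed the order of the 5 genes by level. Per kilobase of annotated exon, untreated WT-labelled cells held 190 ± 60.3 normalised reads of Ifi35 (SD, n = 3), 132 ± 65.1 of Ifi27l1 and 44.4 ± 18.7 of Nmi. Below these came Ifi27l2a at 12.1 ± 10.8 and Ifi44 at 7.45 ± 4.65 normalised reads per kilobase. Neighbours in this order overlapped, except Nmi and Ifi27l2a, whose nearest libraries were at 24.1 and 23.7. With IFN-β, Ifi44 moved from the lowest place to the second, at 828 ± 67.4 normalised reads per kilobase. Ifi35 was highest at 1680 ± 32.4, followed after Ifi44 by Nmi at 380 ± 56.9, Ifi27l1 at 233 ± 51.0 and Ifi27l2a at 82.2 ± 15.5, and no neighbours overlapped. Untreated KO-labelled cells had Ifi35 first (224 ± 134, SD, n = 2) and Ifi44 (14.2 ± 14.5) and Ifi27l2a (9.50 ± 3.83) last. In treated KO-labelled cells the order was the same without overlap, from 2290 ± 363 for Ifi35 (SD, n = 2) through 1150 ± 278 for Ifi44 to 56.2 ± 56.9 for Ifi27l2a. Exon lengths ran from 0.463 kilobases for Ifi27l2a to 6.129 for Ifi44, and they come from GENCODE M21 and not from the annotation used for counting.

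Nmi and Ifi35, whose proteins form a complex, were also compared as a ratio. Per kilobase, Nmi stood at 0.231 ± 0.0474 of the level of Ifi35 in the 5 untreated libraries and at 0.209 ± 0.0378 in the 5 treated ones (SD). The log2 ratio changed by −0.17 on average, and an exact permutation test of the treatment within each labelled genotype gave p = 0.5 (two-sided, 120 arrangements, smallest possible p 0.017). A p of this size does not show that the ratio was unchanged, and the comparison was chosen after its values were seen. Within libraries of the same number the ratio fell in 3 of 5 pairs, among them both KO-labelled ones, and rose in the other two. The ratio followed the replicate number: it was 0.160 to 0.190 in the 4 libraries numbered 1, 0.207 to 0.281 in those numbered 2, and 0.272 and 0.249 in those numbered 3. The permutation test took no account of this number, and the comparison paired by number is given in the last section.

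**Figure D4:**
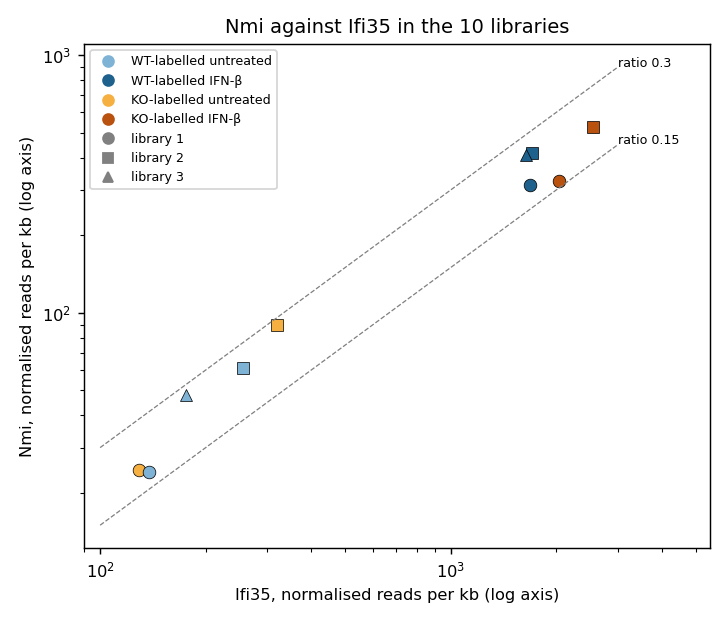
Normalised reads per kilobase of Nmi against Ifi35 in the 10 libraries (log axes); colour gives the group, shape the replicate number, and dashed lines constant ratios. Ratios run from 0.160 to 0.281, with libraries numbered 1 at 0.160 to 0.190.

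The replicate number also moved with the levels of these 2 genes. With the groups in the fit, Nmi was higher in libraries numbered 2 than in those numbered 1 by 1.07 ± 0.22 on the log2 scale (limma adjusted p = 0.0045), and Ifi35 by 0.63 ± 0.18 (adjusted p = 0.021). Both were higher in library 2 in 4 of 4 groups, Nmi by 1.32-fold to 3.63-fold. Of all tested genes, 48.6% differed between these numbers, so 2 of 5 is near the background. The other 3 did not pass (adjusted p from 0.30 to 0.83). What a number stands for is not stated in the labels, and its part in the results was not tested beyond the fit with the block.

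Around the start sites, RefSeq promoter windows (GRCm38.p6, from 250 bases before to 50 after the start) were found for 3 of the 5 genes, Nmi, Ifi44 and Ifi35. Ifi27l1 and Ifi27l2a had no window in the RefSeq promoter table, so only these 3 are shown. The motifs searched on both strands were the core of the interferon-stimulated response element (GAAANNGAAA), the shorter IRF core within it (AANNGAAA), the STAT-binding GAS element (TTCNNNGAA) and the NF-κB consensus. The start of the window is the table's own. For Nmi it is 51973208, an internal start that lies 286 bases inside the outermost GENCODE start and 281 inside the RefSeq one, so the whole Nmi window lies within the annotated gene. For Ifi44 it lies 50 bases inside the GENCODE start and for Ifi35 5 bases inside it, and for both it is the RefSeq gene start. In the stretches shown, read 5′ to 3′ on the gene's strand, capitals mark the IRF core or its reverse complement. They are chr2:51973359-51973388 for Nmi (minus strand, 30 bases), chr3:151749941-151750090 for Ifi44 (minus strand) and chr11:101448232-101448411 for Ifi35 (plus strand).
Nmi: tctagcAAAGGAAAagttcacatctagcga
Ifi44: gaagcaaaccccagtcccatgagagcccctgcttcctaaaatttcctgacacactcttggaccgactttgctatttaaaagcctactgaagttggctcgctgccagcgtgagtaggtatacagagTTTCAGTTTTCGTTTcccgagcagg
Ifi35: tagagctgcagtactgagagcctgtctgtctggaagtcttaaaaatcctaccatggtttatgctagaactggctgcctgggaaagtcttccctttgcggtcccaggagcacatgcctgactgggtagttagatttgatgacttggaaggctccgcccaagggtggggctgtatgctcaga

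Ifi44, with the strongest rise, had 3 IRF core matches, at −55 to −48, −48 to −41 and −9 to −2 from the table's start, the first 2 sharing a base; the last lies outside the stretch shown. The second and the last lie inside the GENCODE gene, and the first crosses its start. Nmi had 1, at −174 to −167 from its internal start, which is downstream of the outermost annotated starts. Ifi35 had none before its start, but in the first 30 bases after it (chr11:101448412-101448441) lay a GAS match at 8 to 16 that overlaps an IRF core match at 15 to 22, both in capitals here.
Ifi35 start: agcagaaTTCACAGAAATGAAAgtggaagt
The IRF core occurred in 23.9% of all 32851 windows of this length and the GAS element in 8.3%. The full response element core, found in 3.44% of all windows, and the NF-κB consensus, found in 4.51%, did not occur in these letters in the 3 windows. A match is a description of letters and not a site shown to be bound.

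**Figure D5:**
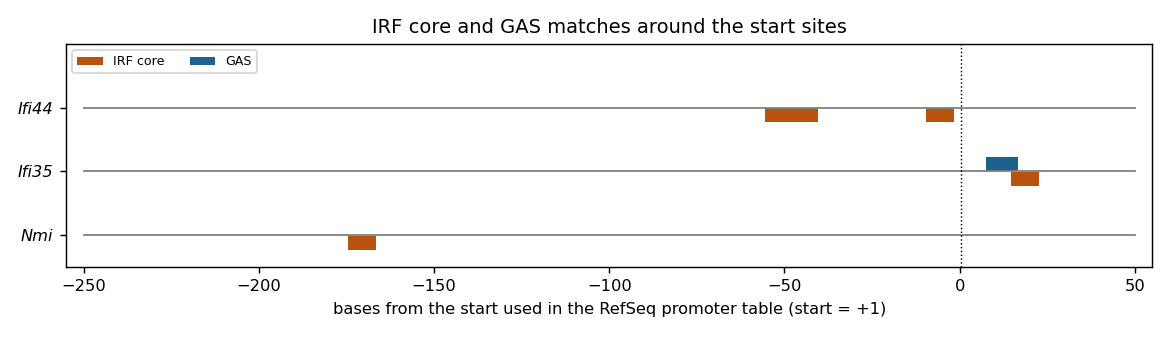
IRF core (orange, below the line) and GAS (blue, above the line) matches from 250 bases before to 50 after the start that the RefSeq promoter table uses for Ifi44, Ifi35 and Nmi (dotted line); the Nmi start is internal to the annotated gene. The matches of Ifi44 lie between −55 and −2, those of Ifi35 between 8 and 22, and that of Nmi at −174 to −167.

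The genes that lie beside the 5, the nearest 2 protein-coding genes on each side, were 16 in all. Of the 13 that could be tested, 2 rose in WT-labelled cells, where 2.21% of all tested genes did, and 0 in KO-labelled cells, where 1.83% did, while 4 passed in each with the replicate block (4.68% and 3.37% of all tested genes rose in that fit). H28 (Ifi44l in current nomenclature), the relative of Ifi44 that lies 8776 bases away, held 0, 3 and 1 reads in the untreated WT-labelled libraries and 36, 28 and 43 with IFN-β. Its log2 fold change was 4.17 ± 0.75 (adjusted p = 0.018), and 3.00 ± 0.92 in KO-labelled cells (adjusted p = 0.33, and 0.049 with the block). Rbm43, an RNA-binding protein gene beside Nmi, rose by 2.09 ± 0.41 in WT-labelled cells (adjusted p = 0.032) and had 2.18 ± 0.50 in KO-labelled cells (adjusted p = 0.089, and 6.3e-05 with the block). Ddx24 and Otub2, beside Ifi27l1, passed only with the block, at log2 fold changes of 0.64 and 0.96 in WT-labelled cells. Vat1, 46 bases from the end of Ifi35 on the other strand, had −0.45 ± 0.27 (adjusted p = 1), and Rpl27 on the other side −0.18 ± 0.35 (adjusted p = 1).

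A list of 19 genes whose products drive interferon signalling or are known to meet these proteins was read beside them, of which 18 were tested. In WT-labelled cells 7 rose, where 2.21% of all tested genes did, with a list median of 0.37 against −0.028 over all genes. In KO-labelled cells 7 rose, where 1.83% did, with a median of 0.28. The list was built around interferon signalling with earlier results of these data known, so its counts are a description. The 7 genes were, in both, Stat2, Irf9 and Irf7 of the signalling pathway, the RNA sensor Ddx58, the ubiquitin ligase Trim21 that binds Nmi and Ifi35, the transcription factor Batf2 and the adaptor Myd88. Stat2 rose by 4.31 ± 0.42 and 5.26 ± 0.52, Irf7 by 7.24 ± 0.57 and 8.92 ± 0.70 (on 4 and 9 untreated reads in the KO-labelled libraries), and Trim21 by 4.73 ± 0.58 and 5.07 ± 0.71 in WT-labelled and KO-labelled cells. Fkbp5, the partner of Ifi44, had −0.30 ± 0.35 and −0.28 ± 0.43, and did not pass. With the replicate block Stat3 (0.40) and Myc (0.45) passed in WT-labelled cells and Myc (0.70) in KO-labelled cells. In that fit 4.68% of all tested genes rose in WT-labelled and 3.37% in KO-labelled cells. Between the labelled genotypes none of the 18 passed, where 6.23% of all tested genes did untreated and 6.55% with IFN-β. The block called 6 untreated, where it called 26.6% of all genes, and 3 with IFN-β, where it called 26%. The 6 were Brca1, Irf7, Myc, Nfkbia, Stat3 and Stat5b, and the 3 were Myc, Nfkbia and Stat3.

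By pattern over the 10 libraries, the genes most like each of the 5 were named by Pearson's r of log2(normalised reads + 1) among the 12313 tested genes, as a description. The libraries share treatment, replicate number and depth. Ifi35 was most like Stat2, Irgm2 and Parp10 (r = 0.996, 0.996 and 0.995), Nmi most like Parp10, Dtx3l and H2-M3 (0.993, 0.990 and 0.990), and Ifi44 most like Tap1, Xaf1 and Igtp (0.998, 0.994 and 0.987). Ifi27l2a was most like Il18bp, Apod and Mpeg1 (0.976, 0.949 and 0.918). Ifi27l1 was most like Chac1, Sesn2 and Tbrg1 (0.962, 0.948 and 0.872). Among the 5, r was highest for Ifi35 with Nmi (0.988) and lowest for Ifi27l1 with Nmi (0.722).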

How the data were processed

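The deposited values are a signal, namely reads counted per gene and scaled by the authors with 1 size factor per library. Dividing each library by its smallest step, refitted over its low values, returned whole reads for 100% of values. The tolerance was 0.001 reads, widened in proportion to the count for high values. Per the submitters' processing notes, cutadapt 1.13, STAR 2.5.2a, HTSeq and DESeq2 were used with mm10; annotation, strand setting and filters are not given in the sources used here. The values were put on the log2(normalised reads + 1) scale and tested two-sided by limma-trend (limma 3.58.1 in R 4.3.3), over all 10 libraries with 4 group means, with Benjamini-Hochberg adjustment; this scale understates changes of low genes. The low-count filter was filterByExpr (minimum count 10), which left 12313 genes. The floor, 3 reads in a library (2.73 to 3.29 normalised reads), covers counting error only. Alternatives included edgeR 4.0.16 and DESeq2 1.42.0 on recovered reads. The procedure was tested on simulated counts that held no effect of the replicate number, so that test does not bear on such an effect.

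Libraries of different groups with the same replicate number deviated together from their group means (r of 0.48 to 0.871 in 13 such pairs, against −0.871 to 0.318 in 24 pairs with different numbers), so the numbers were taken to pair the samples. Deviations within a group sum to 0, which pushes r down for pairs with different numbers. In the KO-labelled groups of 2 libraries they mirror each other, so −0.871 is the reverse of 0.871. The pairs are not independent. The labels do not say what a number marks. The block value stands beside a result where it changes the call.

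Members, lists and the rules for named genes (members, relatives, partners, neighbours, the 3 most alike genes, Slfn2) were chosen with earlier results of these data known, and 1 gene of the partner list is not reported here. Symbols were matched through RefSeq synonyms (Ifi27 for Ifi27l1, H28 for Ifi44l, Emr1 for Adgre1). Coordinates and exon lengths are from GENCODE M21 (GRCm38, the same assembly as mm10).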

Additional observations from a re-analysis of the deposited data

How the results depend on the processing

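In WT-labelled cells 3 members rose under all alternatives but DESeq2, which called 4, with Ifi27l2a added. In KO-labelled cells the count of 3 was 0 when only the KO-labelled libraries were fitted, which leaves 2 libraries per group (adjusted p from 0.215 to 0.631 for Ifi44, Ifi35 and Nmi), and 2 or 3 over the libraries left out. With edgeR the Nmi call in KO-labelled cells was lost (log2 fold change 2.90, adjusted p = 0.052). On the KO-labelled libraries alone, 1 gene of the partner and relative lists rose in place of 7; in WT-labelled cells the count for these lists was 8, and 7 in 5 of the 10 fits with a library left out. No member passed between genotypes or in the interaction under any alternative. The genotype differences with IFN-β of Ifi35 (0.281 to 0.606) and Ifi44 (0.211 to 0.708) kept their sign over the libraries left out, and the following changed it. Untreated, Ifi27l2a went to −0.281 with the replicate block, −0.339 in edgeR, −0.329 in DESeq2, −0.077 with a pseudocount of 5 and −0.00604 with TMM scaling, and with IFN-β Ifi27l1 went to −0.181 with the block. Over the libraries left out, the untreated genotype difference ran from −0.58 to 0.387 for Ifi27l1, −0.672 to 0.608 for Ifi27l2a, −0.507 to 0.79 for Ifi35, −0.737 to 1.10 for Nmi and −0.63 to 1.96 for Ifi44. With IFN-β it ran from −0.00448 to 0.305 for Ifi27l1, −2.20 to 0.243 for Ifi27l2a and −0.209 to 0.488 for Nmi. The interaction ran from −0.246 to 0.722 for Ifi27l1, −2.21 to 0.234 for Ifi27l2a, −0.346 to 0.951 for Ifi35, −0.964 to 0.876 for Nmi and −1.50 to 1.09 for Ifi44. The cause of these changes of sign was not tested. The Nmi to Ifi35 log2 ratio changed by −0.312 to −0.032 over the libraries left out, and by −0.137 paired by number (exact sign flips, p = 0.312, smallest possible p 0.0625), alternatives added after seeing the data. Ifi27l2a rests on 1 to 10 reads in each untreated WT-labelled library, and its precision is limited by these counts and by the spread between libraries.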
